A study of Mus musculus with 32 samples.

Results

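Integrins are heterodimeric cell surface receptors, and 10 genes that encode their subunits were followed here in YUMM3.3 cells, a Braf mutant mouse melanoma line grown in culture. The genes were taken by symbol, with earlier results of these data known: the beta subunits Itgb1, Itgb3 and Itgb5, and the alpha subunits Itgav, Itga2, Itga3, Itga4, Itga5, Itga6 and Itga7. All 10 had a row among the 12451 genes of the deposited table. mRNA was measured by BRB-seq, in which the cDNA of each sample is barcoded, the samples are pooled and the 3′ ends of transcripts are counted. The 32 samples were wells of 6-well plates, 4 for each of 8 groups. Cells were left untreated (NT) or received 40 ng/ml Activin-A (ActA), 20 ng/ml IFN-γ (IFNg) or both factors together (ActA_IFNg), and each condition was sampled at 4 hrs and at 12 hrs. The doses are those of the labels, although figure legends of the study name a higher dose of Activin-A for this experiment. The labels describe 4 wells of a single line per group, so that the p-values below measure the spread between wells and not between independent lines or animals.

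Each integrin consists of an alpha and a beta chain, and the pair that forms decides which ligand is bound. The Itgb1 chain pairs with most alpha chains, whereas Itgb3 and Itgb5 pair with Itgav to receptors for RGD-containing proteins such as vitronectin and fibronectin. Through talin, kindlin and other adaptors the cytoplasmic tails connect the matrix to the actin cytoskeleton and to focal adhesion kinase, and αv integrins also release active TGF-β from its latent complex. Activin-A belongs to the TGF-β family and acts through SMAD2 and SMAD3, whereas IFN-γ acts through JAK kinases.

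The promoters of the 4 integrin genes on which the results turn are shown first, because Itgb1, Itgb5 and Itgav rose together under Activin-A and Itga5 was called with them at 4 hrs. Each window holds 250 bases before and 50 bases after the RefSeq start of the gene, on the gene's own strand, in build GRCm38.p6. That build is not the one named for the counts, so the positions apply to the sequences alone. The windows lie at chr8:128685404-128685703 (+) for Itgb1, chr16:33829415-33829714 (+) for Itgb5, chr2:83724147-83724446 (+) for Itgav and chr15:103366742-103367041 (-) for Itga5. Capitals mark a match to any of 5 motifs searched on both strands.
Itgb1: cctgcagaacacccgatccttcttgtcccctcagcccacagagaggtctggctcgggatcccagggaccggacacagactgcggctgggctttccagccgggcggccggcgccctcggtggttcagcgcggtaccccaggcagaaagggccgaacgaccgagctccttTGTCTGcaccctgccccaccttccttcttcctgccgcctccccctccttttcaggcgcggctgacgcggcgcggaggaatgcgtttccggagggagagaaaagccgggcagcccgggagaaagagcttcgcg
Itgb5: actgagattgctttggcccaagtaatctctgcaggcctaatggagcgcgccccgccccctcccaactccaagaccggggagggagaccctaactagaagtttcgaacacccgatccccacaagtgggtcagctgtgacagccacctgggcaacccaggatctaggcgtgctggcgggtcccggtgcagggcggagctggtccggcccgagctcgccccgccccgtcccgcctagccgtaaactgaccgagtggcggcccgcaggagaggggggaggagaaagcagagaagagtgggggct
Itgav: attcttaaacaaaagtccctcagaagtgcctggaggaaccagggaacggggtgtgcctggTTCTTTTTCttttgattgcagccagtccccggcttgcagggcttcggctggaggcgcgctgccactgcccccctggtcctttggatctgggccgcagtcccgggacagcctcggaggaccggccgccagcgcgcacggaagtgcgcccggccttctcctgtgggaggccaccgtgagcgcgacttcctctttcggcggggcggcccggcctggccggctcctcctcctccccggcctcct
Itga5: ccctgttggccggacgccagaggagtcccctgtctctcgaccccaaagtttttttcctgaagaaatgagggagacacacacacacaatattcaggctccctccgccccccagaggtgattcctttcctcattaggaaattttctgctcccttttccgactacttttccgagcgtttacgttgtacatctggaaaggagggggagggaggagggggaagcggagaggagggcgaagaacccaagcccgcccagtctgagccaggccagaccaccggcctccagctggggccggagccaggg

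The motifs were the SMAD-type elements CAGACA and GTCTAGAC, the AP-1 type element TGANTCA, the STAT-type element TTCNNNGAA and the interferon-stimulated type element GAAANNGAA, where N is any base. Itgb1 held 1 match to CAGACA, on the opposite strand, with its first base 82 bases before the start, and CAGACA was found in 21.0% of the 32851 RefSeq promoter windows of this length. Itgav held 1 match to GAAANNGAA, also on the opposite strand, at 190 bases before the start, and this motif was found in 8.56% of all windows. Itgb5 and Itga5 held none of the 5. GTCTAGAC occurred in 0.213% of all windows, TGANTCA in 7.81% and TTCNNNGAA in 8.3%, and none of these was in the 4 windows printed. No 2 matches in the printed windows overlapped. A match describes the letters of the window and not a bound site, and the lack of a match says only that these letters are not in it. RefSeq windows were at hand for 7 of the 10 genes, the others being Itgb3, Itga6 and Itga7. Of those not printed, Itga2, Itga4 and 1 of the 2 windows of Itga3 held a CAGACA match, the same Itga3 window also held GAAANNGAA, and its other window held TGANTCA.

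Total counts ranged from 654539 to 1455074 per well, and a floor of 3 counts was worth between 1.97 and 4.56 CPM, that is, counts relative to the TMM-scaled library size. Replicate 1 of Activin-A at 4 hrs stood apart: the chi-squared statistic per gene of pairs of wells within a group reached 2.89 in pairs with this well, the most deeply counted of all, and 1.54 in pairs without it. For the named genes and lists below whose values use this well, most are also given without it. All 8 melanocyte markers on the list were in the table, with a summed level of 321 to 459 CPM over the 32 wells. Pmel, Tyrp1, Dct and Mlana had medians of 56.0 to 122 CPM. Mitf, S100b, Tyr and Sox10 had medians of 7.04 to 14.5 CPM, compared with 13.5 CPM for the fibroblast marker Pdgfra. Of 4 keratinocyte markers Krt10 alone had a row, at up to 15.2 CPM, and Krt5, Krt14 and Krt1 had none. Of 4 fibroblast markers Pdgfra was at 5.61 to 23.1 CPM and Dcn at up to 9.84 CPM, with no row for Dpt and Lum. Of 6 leukocyte markers Ptprc and Itgal had rows, at up to 6.08 and 8.76 CPM, and Cd3e, Itgam, Cd79a and Adgre1 had none, nor did the 3 endothelial markers Pecam1, Cdh5 and Kdr. The part of such cells in the results was not tested. All 6 IFN-γ readout genes were higher with IFN-γ at both times, at an adjusted p under 0.05 (edgeR). With Activin-A all 6 Activin-A readout genes were higher by this threshold at 4 hrs, and 4 of them at 12 hrs. Smad7 and Skil did not pass it at 12 hrs, with log2 fold changes of 0.61 and 0.78. Because each value is a bulk measurement, fewer expressing cells and less mRNA per cell cannot be told apart.

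Activin-A raised the mRNA of Itgb5, Itgav and Itgb1 in YUMM3.3 cells within 12 hrs, and Itgb5 moved most. Itgb5 encodes the β5 chain, which forms the vitronectin receptor αvβ5 with Itgav. It stood at 62.9, 78.3, 66.7 and 65.0 CPM in the untreated wells at 12 hrs and at 121, 134, 151 and 165 CPM in the Activin-A wells. The lowest treated well lay well above the highest untreated well, and the means were 68.2 ± 6.88 and 143 ± 19.0 CPM (SD, n = 4 each). The log2 fold change (log2FC) was 1.04 ± 0.12 (SE), a 2.06-fold increase, with an adjusted p of 1.29e-11 by the edgeR quasi-likelihood test, with p-values adjusted over all genes tested after Benjamini and Hochberg.

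Itgav encodes the αv chain, the partner of β1, β3 and β5 in RGD receptors. Its level was 140.5, 142, 128 and 119.6 CPM in untreated wells at 12 hrs and 181, 216, 169 and 210.3 CPM with Activin-A. The groups did not overlap, for a log2FC of 0.53 ± 0.0925 (SE, adjusted p = 2.06e-05, edgeR). Itgb1, the common β1 chain, had 484 to 1266 counts per well. It was at 602, 636, 609 and 579 CPM untreated and 825, 832, 804 and 844 CPM with Activin-A, again without overlap, for a smaller log2FC of 0.44 ± 0.0554 (SE, adjusted p = 1.35e-09, edgeR).

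These 3 genes were the only integrins called, at an adjusted p under 0.05, among the 8 of the 10 that passed the filter on low counts at 12 hrs, and over all genes 216 of 8971, or 2.41%, were called. The median log2FC of the 8 was 0.28, compared with -0.0031 over all genes tested. The remaining 5 did not pass the test, and their values overlapped between the groups. How often the wells of 2 groups are separate over all genes was not counted. Here and below, overlap or its lack therefore only describes the wells. Itga5, the α5 chain of the fibronectin receptor, had a log2FC of 0.13 with a 95% interval of -0.05 to 0.31. For the laminin receptor chains the intervals were -0.24 to 0.09 for Itga3, -0.14 to 0.21 for Itga6 and -0.17 to 0.33 for Itga7. Itga4, the α4 chain that binds VCAM-1 and fibronectin, was too thinly counted (4 to 24 counts per well over all groups) for a narrow estimate, and its interval was -0.17 to 1.16. A p above the threshold does not show that these genes were unaffected.

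**Figure D1:**
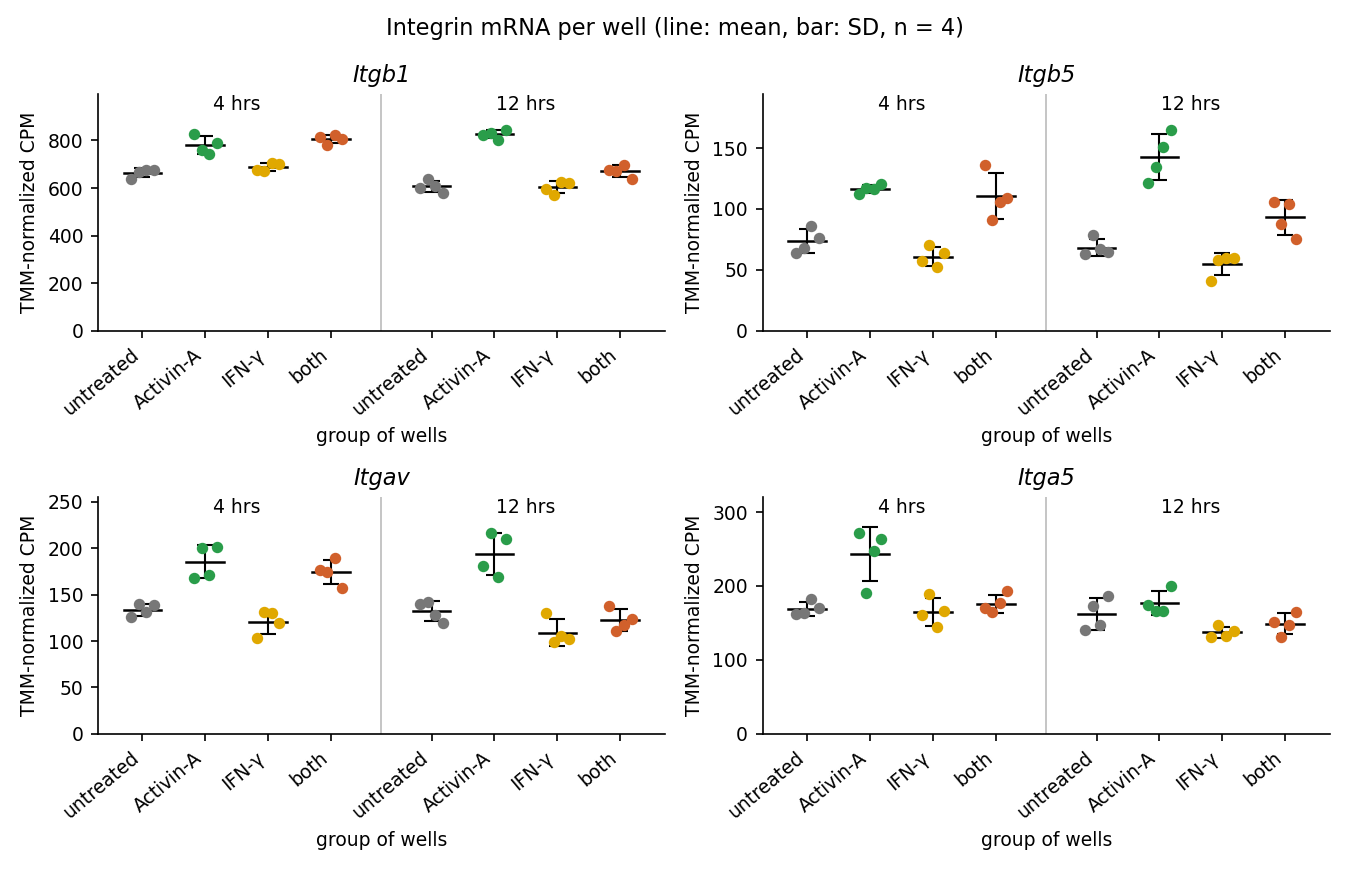
TMM-normalized CPM (y axis) of Itgb1, Itgb5, Itgav and Itga5 in each of the 32 wells, by treatment and time (x axis), with 1 point per well, a line at the mean of 4 wells and a bar of 1 SD. Activin-A wells lie above untreated wells for Itgb5, Itgav and Itgb1 at both times and for Itga5 at 4 hrs, and at 12 hrs the wells with both factors lie below the Activin-A wells in all 4 genes.

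At 4 hrs, Activin-A had already raised the same 3 chains, and with them Itga5. Itga5 stood at 161, 163, 182 and 171 CPM in untreated wells and at 271, 190.0, 247 and 264 CPM with Activin-A. The treated wells were all higher, although 1 of them, replicate 2 and the shallowest well of the series, lay close to the untreated range. The log2FC was 0.55 ± 0.0918 (SE, adjusted p = 6.03e-05, edgeR) and 0.50 without replicate 1 of Activin-A.

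Itgb5 rose from 63.7, 67.8, 86.1 and 76.4 CPM to 113, 117, 116 and 121 CPM at 4 hrs, with treated wells close to one another and no overlap. This gave a log2FC of 0.68 ± 0.12 (SE, adjusted p = 0.000189, edgeR), and 0.69 without replicate 1. Itgav rose from 126, 139.5, 131 and 139 CPM to 168, 201, 172 and 202 CPM. Its groups were also separate, with a log2FC of 0.46 ± 0.0949 (SE, adjusted p = 0.00180, edgeR), and 0.51 without replicate 1. For Itgb1 the untreated wells were at 636, 668, 675 and 677 CPM and the treated wells at 829, 762, 744 and 788 CPM. The rise of Itgb1 was small, 0.24 ± 0.0602 (SE, adjusted p = 0.0175, edgeR), and was 0.20 without replicate 1 of Activin-A (adjusted p = 0.0476). Its adjusted p was between 0.00539 and 0.0704 over 7 other ways of testing, with the highest value in a fit of only the 8 wells compared, and was 0.0955 without replicate 1 of the untreated group.

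Over all genes at 4 hrs 150 of 9137, or 1.64%, were called, and 4 of the 8 integrins tested were, all higher. The median log2FC of the 8 was 0.35, compared with -0.0017 over all genes. Itgb3, the β3 chain that pairs with Itgav, had an estimate as large as that of Itgb5 at 12 hrs but few counts, 4 to 26 per well over the series. It was at 8.73, 11.5, 5.45 and 6.95 CPM untreated and 11.8, 18.2, 16.6 and 23.4 CPM with Activin-A. The lowest treated well was just above the highest untreated well, and the log2FC of 1.04 ± 0.31 (SE) did not pass the test (95% interval 0.42 to 1.67, adjusted p = 0.0667, edgeR). Without replicate 1 of Activin-A, the lowest of the treated wells for this gene, it was 1.23 and passed (adjusted p = 0.0235, edgeR). This made 5 integrins called, of 9 that passed the filter in that fit. When single wells were left out, 110 to 163 of all genes were called. However, over 6 other ways of testing, with all wells, the adjusted p of Itgb3 ranged from 0.0630 to 0.328. Itga6 was at 186, 189, 169 and 167 CPM and 158, 155, 145 and 161 CPM, so that the treated wells were lower without overlap, but its log2FC of -0.20 (interval -0.38 to -0.01) had an adjusted p of 0.405 (edgeR). Itga3 and Itga7 overlapped between the groups, with intervals of -0.21 to 0.15 and -0.33 to 0.18. With replicate 1 left out the log2FC was -0.10 for Itga3, -0.21 for Itga6 and -0.18 for Itga7.

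Whether the Activin-A effect differed between the times was tested as the effect at 12 hrs minus that at 4 hrs, over all 32 wells. None of the 9 integrins tested was called by edgeR or by DESeq2, and 2 of 9332 genes, or 0.0214%, were called. An unadjusted p under 0.05 (edgeR) was found for 3 of the integrins and for 569 of all genes. The difference was -0.42 for Itga5 (interval -0.68 to -0.16, adjusted p = 0.620, edgeR), 0.37 for Itgb5 (0.03 to 0.72) and 0.21 for Itgb1 (0.05 to 0.36). Without replicate 1 of Activin-A at 4 hrs these differences were -0.37, 0.34 and 0.23, and again none was called. The call of Itga5 at 4 hrs and not at 12 hrs was therefore not shown to be a difference between the times. In untreated cells none of the 9 integrins was called between 12 and 4 hrs by either tool. Over all genes 457 of 9332, or 4.9%, were called. Only 1 integrin (Itgb1, -0.13, interval -0.24 to -0.02) had an unadjusted p under 0.05 (edgeR), as did 1637 of all genes.

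With IFN-γ alone a single integrin call was made, a lower Itgav at 12 hrs. At 4 hrs, 462 of 9137 genes, or 5.06%, were called and none of the 8 integrins tested was, by edgeR or by DESeq2. No integrin had an unadjusted p under 0.05 (edgeR), compared with 1217 of all genes. The estimates ran from -0.22 for Itgb5 (interval -0.50 to 0.05) to 0.27 for Itgb3 (-0.45 to 1.00), and the interval of Itgb1 was -0.06 to 0.19. At 12 hrs, 830 of 8971 genes, or 9.25%, were called, and among the 8 integrins tested only Itgav was, a share near this background. The median log2FC of the 8 was -0.06, compared with -0.0098 over all genes.

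Itgav at 12 hrs was at 130.1, 98.6, 105 and 102 CPM with IFN-γ, compared with 140.5, 142, 128 and 119.6 CPM untreated. Of the IFN-γ wells 3 lay below all untreated wells and replicate 1 lay among them. The log2FC was -0.31 ± 0.10 (SE) with an adjusted p of 0.0435 (edgeR), close to the threshold. The adjusted p ranged from 0.0340 to 0.201 over 7 other ways of testing, and the call was lost in 3 of them. Leaving out a single well also ended it, with an adjusted p of up to 0.152, for all wells but replicate 4 of the untreated and replicate 1 of the IFN-γ group. Itgb5 was at 41.0, 58.1, 60.1 and 59.4 CPM with IFN-γ and 62.9, 78.3, 66.7 and 65.0 CPM without. The groups were separate, but the log2FC of -0.31 (interval -0.59 to -0.03) had an adjusted p of 0.204 (edgeR). Itga5 had a log2FC of -0.23 (interval -0.42 to -0.04, adjusted p = 0.143), and Itgb1, at 603 ± 24.8 compared with 607 ± 23.4 CPM (SD, n = 4 each), had an interval of -0.12 to 0.10. The effect of IFN-γ at 12 hrs minus that at 4 hrs was called for none of 9 integrins by either tool. Over all genes 54 of 9332, or 0.579%, were called. No integrin was at an unadjusted p under 0.05 (edgeR), compared with 689 of all genes.

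**Figure D2:**
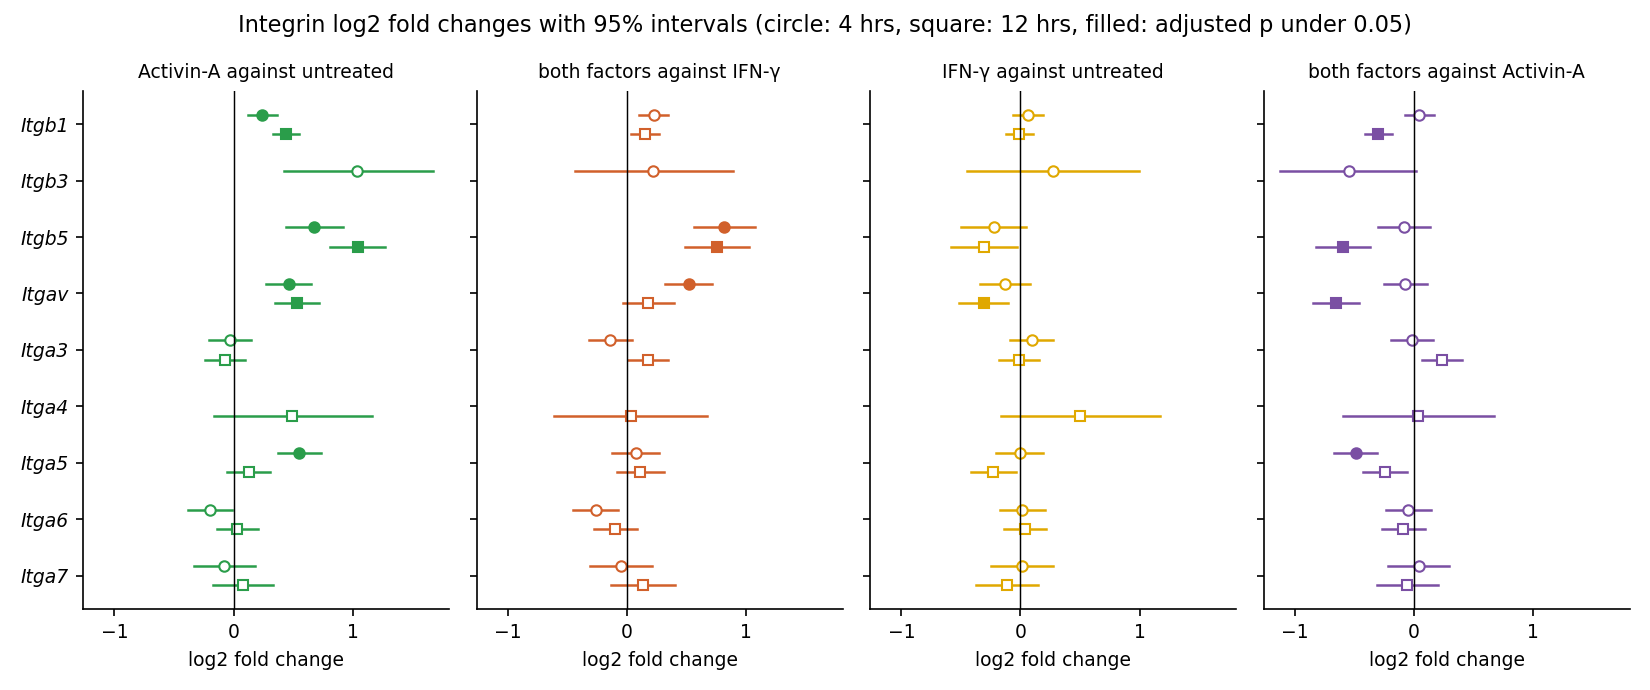
Log2 fold changes (x axis) of 9 integrin genes (y axis) with 95% intervals in 4 comparisons at 4 hrs (circles) and 12 hrs (squares), filled where the adjusted p was under 0.05, and without a point where a gene did not pass the filter at that time. Under Activin-A the filled points of Itgb1, Itgb5, Itgav and Itga5 all lie right of 0, and with both factors against Activin-A all 4 filled points lie left of 0.

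Activin-A was next compared in cells that also received IFN-γ, by setting wells with both factors beside wells with only IFN-γ. At 4 hrs the rise of Itgb5 and Itgav was present here too. Itgb5 was at 57.2, 70.1, 52.6 and 63.9 CPM with IFN-γ and at 136, 90.8, 106 and 109 CPM with both factors, for a log2FC of 0.82 ± 0.13 (SE, adjusted p = 1.92e-05, edgeR). Itgav was at 103, 132, 129.9 and 119 and 177, 175, 189 and 157 CPM, for a log2FC of 0.52 ± 0.0985 (SE, adjusted p = 0.00089). In both genes every well with both factors lay above every IFN-γ well. These were 2 of 8 integrins tested, and 74 of 9137 genes, or 0.81%, were called. Itgb1 was at 676, 672, 707 and 701 CPM with IFN-γ and 814, 782, 822 and 805 CPM with both, also without overlap. Its log2FC of 0.22 ± 0.0603 (SE) had an adjusted p of 0.0546, just above the threshold, and between 0.0168 and 0.0798 over 7 other ways of testing, of which 5 called it, DESeq2 among them. None of the 8 fits without a single well did (0.0836 to 0.180). Itga5 had a log2FC of 0.07 (interval -0.12 to 0.27, adjusted p = 0.900).

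At 12 hrs, 1 of 8 integrins tested, Itgb5, was called with both factors against IFN-γ, as were 92 of 8971 genes, or 1.03%. It was at 105, 87.3, 104 and 75.2 CPM with both factors and 41.0, 58.1, 60.1 and 59.4 CPM with IFN-γ, without overlap, for a log2FC of 0.75 ± 0.14 (SE, adjusted p = 9.29e-05, edgeR). Itgav was at 138, 111, 118 and 124 CPM with both factors and 130.1, 98.6, 105 and 102 CPM with IFN-γ. These wells overlapped, and the log2FC was 0.18 (interval -0.04 to 0.40, adjusted p = 0.615). Itgb1 was at 677, 673, 695 and 636 and 598, 571, 625 and 620.0 CPM, without overlap, but its log2FC of 0.15 (interval 0.04 to 0.27) had an adjusted p of 0.265 (edgeR).

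The comparison of both factors with Activin-A alone addresses what IFN-γ did to the integrins in cells that received Activin-A. At 12 hrs Itgav, Itgb5 and Itgb1 were all lower with both factors, 3 of the 8 tested, and 863 of 8971 genes, or 9.62%, were called. Itgav was at 138, 111, 118 and 124 CPM compared with 181, 216, 169 and 210.3 CPM, which placed all 4 wells below the Activin-A wells (log2FC -0.66 ± 0.0973 SE, adjusted p = 4.37e-08, edgeR). Itgb5 was at 93.1 ± 14.5 compared with 143 ± 19.0 CPM (log2FC -0.60 ± 0.11 SE, adjusted p = 2.29e-05), and Itgb1 at 670.4 ± 24.8 compared with 826 ± 16.6 CPM (log2FC -0.30 ± 0.0557 SE, adjusted p = 1.77e-05). The wells of these genes did not overlap either. At 12 hrs the order of the group means was Activin-A, both factors, untreated and IFN-γ for Itgb5 and Itgb1. Untreated and IFN-γ were not shown to differ in either gene, nor were both factors and IFN-γ for Itgb1. For Itgav the order was Activin-A, untreated, both factors and IFN-γ, with the last pair not shown to differ. Wells with both factors were not tested against untreated wells. The median log2FC of the 8 integrins was -0.17, compared with -0.0075 over all genes.

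The other integrins did not pass the test with both factors against Activin-A at 12 hrs. Itga5 was at 151, 131, 147 and 165 CPM compared with 175, 166, 166 and 200.5 CPM, just separate, with a log2FC of -0.24 (interval -0.43 to -0.05, adjusted p = 0.0971, edgeR). Itga3, a laminin receptor chain, went the other way, at 193, 220.5, 232 and 227 compared with 180.3, 209, 179.7 and 169.7 CPM. These wells overlapped, and its log2FC of 0.24 (interval 0.07 to 0.40, adjusted p = 0.0628) passed only without replicate 2 of Activin-A (adjusted p = 0.0192) or replicate 1 of both factors (0.0241), with 0.0584 to 0.239 over 7 other ways of testing. At 4 hrs the only integrin of 8 called was Itga5, lower, where 555 of 9137 genes, or 6.07%, were called. It was at 169.6, 165, 177 and 193 CPM with both factors, whereas with Activin-A alone the values were 271, 190.0, 247 and 264 CPM (a log2FC of -0.49 ± 0.0906 SE, adjusted p = 6.30e-05, edgeR). Without replicate 1 of Activin-A the log2FC was -0.43. Replicate 2 of Activin-A fell within the range of the wells with both factors, and the other 3 lay above it. For Itgb1, Itgb5 and Itgav at 4 hrs the intervals were -0.07 to 0.16, -0.30 to 0.14 and -0.25 to 0.11, and without replicate 1 of Activin-A the log2FC was 0.08, -0.10 and -0.12.

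The 4 comparisons within a time share their wells in pairs, so their values are given side by side and are not independent of one another. The direct test of whether the effect of Activin-A depended on IFN-γ is the interaction, the effect of Activin-A with IFN-γ minus its effect without. At 12 hrs no integrin was called by edgeR or DESeq2, and 1 of 8971 genes, or 0.0111%, was called. An unadjusted p under 0.05 (edgeR) was found for 3 of 8 integrins and for 612 of all genes. The interaction was -0.29 for Itgb1 (interval -0.45 to -0.13, adjusted p = 0.209, edgeR), -0.35 for Itgav (-0.63 to -0.07, adjusted p = 0.603) and 0.25 for Itga3 (0.01 to 0.48, adjusted p = 0.711), which were these 3. For Itgb5 it was -0.29 (-0.65 to 0.07, adjusted p = 0.856). At 4 hrs no integrin and 0 of 9137 genes, or 0%, were called by edgeR, and none by DESeq2, with 505 genes at an unadjusted p under 0.05. The only integrin among these was Itga5, with -0.48 (interval -0.75 to -0.21, adjusted p = 0.546) and -0.42 without replicate 1 of Activin-A. For Itgb5 at 4 hrs the interval was -0.21 to 0.50 and for Itgav -0.22 to 0.33, with estimates of 0.13 and 0.02 without that well.

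The laminin receptor chains Itga3, Itga6 and Itga7 had 43 to 287 counts per well and were called in none of the comparisons above. Over the 32 wells Itga3 lay between 151 and 232 CPM, Itga6 between 136 and 193 CPM and Itga7 between 56.1 and 86.3 CPM. The group means of Itga7, the α7 chain found mainly in muscle, ran from 66.9 ± 8.81 CPM with IFN-γ at 12 hrs to 76.0 ± 7.84 CPM with Activin-A at 12 hrs. The chains Itga4, Itga2 and Itgb3 were thinly counted. Itga4 had its highest group mean with both factors at 12 hrs, 13.5 ± 4.90 CPM, and its lowest with Activin-A at 4 hrs, 6.32 ± 0.484 CPM. It did not pass the filter at 4 hrs. Itga2, the α2 chain of a collagen receptor, had 0 to 8 counts per well and passed the filter at neither time. It was at 0 in 5 wells, all of them untreated or Activin-A wells at 4 hrs, which allows up to 4.56 CPM in the shallowest of these. Itgb3 did not pass the filter at 12 hrs. With all 32 wells in the fit its log2FC with Activin-A at 12 hrs was 0.54 (interval -0.20 to 1.29, adjusted p = 0.662, edgeR).

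**Figure D3:**
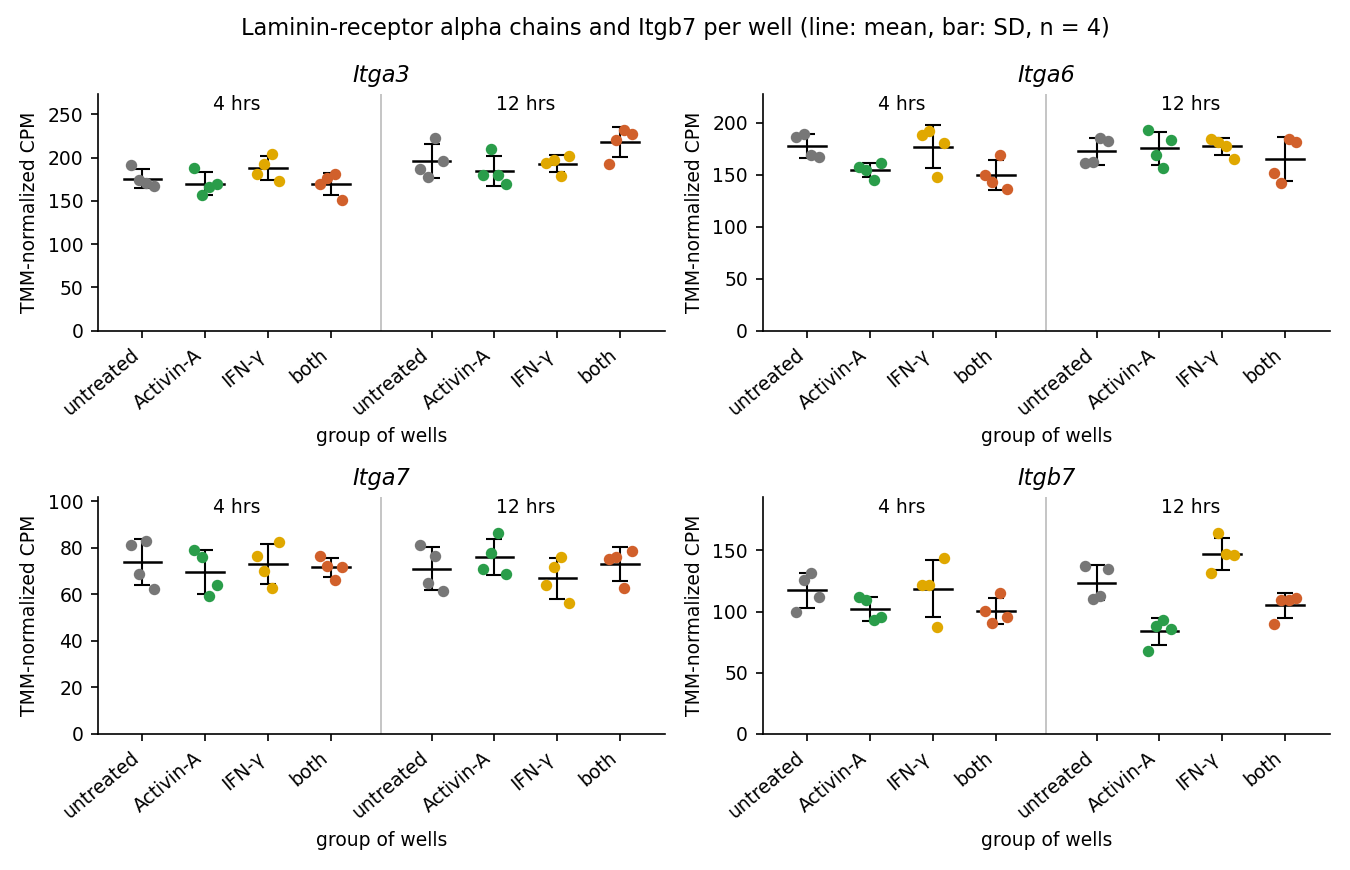
TMM-normalized CPM (y axis) of Itga3, Itga6, Itga7 and Itgb7 in each of the 32 wells, by treatment and time (x axis), with a line at the mean of 4 wells and a bar of 1 SD. The 3 alpha chains overlap between untreated and Activin-A wells at 12 hrs, whereas the Activin-A wells of Itgb7 at 12 hrs, at 67.8 to 93.5 CPM, lie below the untreated wells.

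Of 16 other integrin genes listed for comparison 12 were in the table, and only Itgb7, the β7 chain known from lymphocyte homing receptors with Itga4, passed the filter. Unlike Itgb1, Itgb5 and Itgav it was lower with Activin-A at 12 hrs, at 67.8, 88.4, 93.5 and 86.1 CPM compared with 137, 110.3, 113 and 135 CPM untreated. The groups were separate, with a log2FC of -0.58 ± 0.11 (SE, adjusted p = 0.000127, edgeR). With both factors it was at 89.7, 109.7, 109.9 and 111 CPM compared with 131, 164, 147 and 146 CPM with IFN-γ, also lower without overlap (log2FC -0.49 ± 0.11, adjusted p = 0.00302). Against Activin-A alone both factors gave a log2FC of 0.34 with an adjusted p of 0.0499, at the threshold, and 6 of 7 other ways of testing (0.0461 to 0.210) did not call it, nor did the fits without any 1 well other than replicate 3 of Activin-A or replicate 1 of both factors. At 4 hrs Itgb7 was not called with Activin-A (log2FC -0.19, interval -0.42 to 0.05, adjusted p = 0.580), nor without replicate 1 of Activin-A (-0.26).

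Integrin ligands were examined beside their receptors. The list, drawn up by function with earlier results of these data known, held 41 ligand genes, of which 36 were in the table and 30 passed the filter. Activin-A raised 6 and lowered 1 of the 30 at 12 hrs, where 2.41% of all genes were called, and raised 5 at 4 hrs, where 1.64% were. The median log2FC of the list was 0.06 at 12 hrs and 0.19 at 4 hrs, compared with -0.0031 and -0.0017 over all genes. Without replicate 1 of Activin-A at 4 hrs 6 were higher and the median was 0.11. Ccn2 and Thbs1 are also among the 6 Activin-A readout genes above, which were chosen as genes known to respond, so their rise is no independent result about the ligands. The lowest adjusted p belonged to matricellular proteins. Ccn2, which binds αv integrins and is a known TGF-β target, was at 491 ± 48.6 CPM with Activin-A and 133 ± 11.7 CPM untreated at 12 hrs (SD, n = 4 each, log2FC 1.88 ± 0.078 SE, adjusted p = 5.13e-39, edgeR). Thbs1, which encodes thrombospondin-1, an activator of latent TGF-β, was at 1203 ± 109.8 and 572 ± 31.0 CPM (log2FC 1.07). Ccn1, a further αv ligand, had a log2FC of 0.92. All 3 were also called at 4 hrs, with log2FC of 1.77 for Ccn2, 1.11 for Thbs1 and 1.14 for Ccn1, and of 1.68, 1.04 and 1.08 without replicate 1 of Activin-A. With both factors against IFN-γ, 5 of 30 ligands were higher at 12 hrs (1.03% of all genes called) and 4 at 4 hrs (0.81%), none was lower, and Ccn2 again had the lowest adjusted p at 12 hrs (402 ± 25.7 and 142 ± 8.38 CPM). Thbs1 and Ccn1 were also higher there, with log2FC of 0.78 and 0.69.

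With IFN-γ at 12 hrs 9 of the 30 ligand genes were lower and 3 higher, where 9.25% of all genes were called, 253 lower and 577 higher. The list median was -0.16 compared with -0.0098 over all genes. At 4 hrs 3 were lower and 2 higher, where 5.06% of all genes were called, and the list median was -0.05. The direction of the list was not tested. The matrix genes Col3a1 (117 ± 17.8 with IFN-γ and 220.4 ± 20.4 CPM untreated, log2FC -0.88) and Col6a1 (log2FC -0.83) had the lowest adjusted p at 12 hrs, followed by Spp1, which encodes the αv ligand osteopontin (5252 ± 151 and 6924 ± 415 CPM, log2FC -0.40). At 4 hrs Vcam1, the counter-receptor of α4 integrins, was higher with IFN-γ (log2FC 0.42, adjusted p = 0.00392, edgeR), as was Thbs1 (0.21), and Tgfb1, whose latent form binds αv integrins, was lower (-0.55). Against Activin-A alone, both factors lowered 12 and raised 2 of 30 ligands at 12 hrs (9.62% of all genes called) and lowered 7 and raised 1 at 4 hrs (6.07%). With replicate 1 of Activin-A left out only 2 were lower and 1 higher at 4 hrs. Fits of this comparison without a single well called 462 to 537 of all genes, compared with 555 with all wells. Col5a2, a fibrillar collagen chain, was lower by this comparison at 12 hrs (log2FC -0.76), as were Col6a1 (-1.06) and Col3a1 (-0.90). At 4 hrs Spp1 (-0.29) and Ccn2 (-0.40) were lower and Vcam1 was higher (0.46), and without that well the values were -0.32, -0.31 and 0.44. The list medians were -0.18 at 12 hrs and -0.22 at 4 hrs, the latter -0.13 without that well.

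Intracellular adaptors, membrane partners and signalling genes formed a list of 47, of which 43 passed the filter, and with Activin-A 4 were higher and 1 was lower at 12 hrs, and 3 were higher at 4 hrs, beside 2.41% and 1.64% of all genes called. The list median was 0.08 at 12 hrs and 0.10 at 4 hrs. Without replicate 1 of Activin-A at 4 hrs 2 were higher and the median was 0.07. Fblim1, the filamin-binding migfilin, was at 99.2 ± 8.23 CPM with Activin-A and 63.0 ± 8.66 CPM untreated at 12 hrs (log2FC 0.63, adjusted p = 0.000197, edgeR), and its log2FC at 4 hrs was 0.89, or 0.91 without that well. Flna, the actin crosslinker filamin A that binds beta tails, had a log2FC of 0.34 at 12 hrs, and Vcl, the focal adhesion protein vinculin, 0.32 at 4 hrs, when Pdlim7, an actin-associated LIM protein, had 0.44. Without that well Pdlim7 had 0.44 and Vcl, at 0.22, was no longer called (adjusted p = 0.262, edgeR). Cd81, a tetraspanin that associates with β1 integrins, was lower at 12 hrs (-0.21). With IFN-γ 2 were higher and 2 lower at 12 hrs, a share near the 9.25% of all genes, and 1 was higher at 4 hrs, a share below the 5.06% of all genes. That 1 gene was Cd47, the integrin-associated protein, which was higher at both times with log2FC of 0.72 at 4 hrs and 0.60 at 12 hrs, and Zyx, the focal adhesion protein zyxin, was higher at 12 hrs (0.30), when Cav1 was lower (-0.16). With both factors against Activin-A at 12 hrs 4 were higher and 6 lower (9.62% of all genes called), among them Zyx (0.47) and Cav1, the caveolar coat protein caveolin-1 (-0.39). With both factors against IFN-γ 1 was higher and 2 were lower at 12 hrs (1.03% of all genes called), and 3 were higher at 4 hrs (0.81%), namely Fblim1 (0.94), Pdlim7 (0.38) and Tgfb1i1, the paxillin relative Hic-5 (0.39). At 12 hrs Flna was the higher gene (0.25), with Cd47 (-0.34) and Cd81 (-0.18) lower. Against Activin-A at 4 hrs both factors raised Cd47 (0.70) and lowered Parvb, the adaptor beta-parvin (-0.30), where 6.07% of all genes were called. Leaving out replicate 1 of Activin-A, Cd47 was at 0.71 and Parvb, at -0.21, was not called (adjusted p = 0.306, edgeR).

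**Figure D4:**
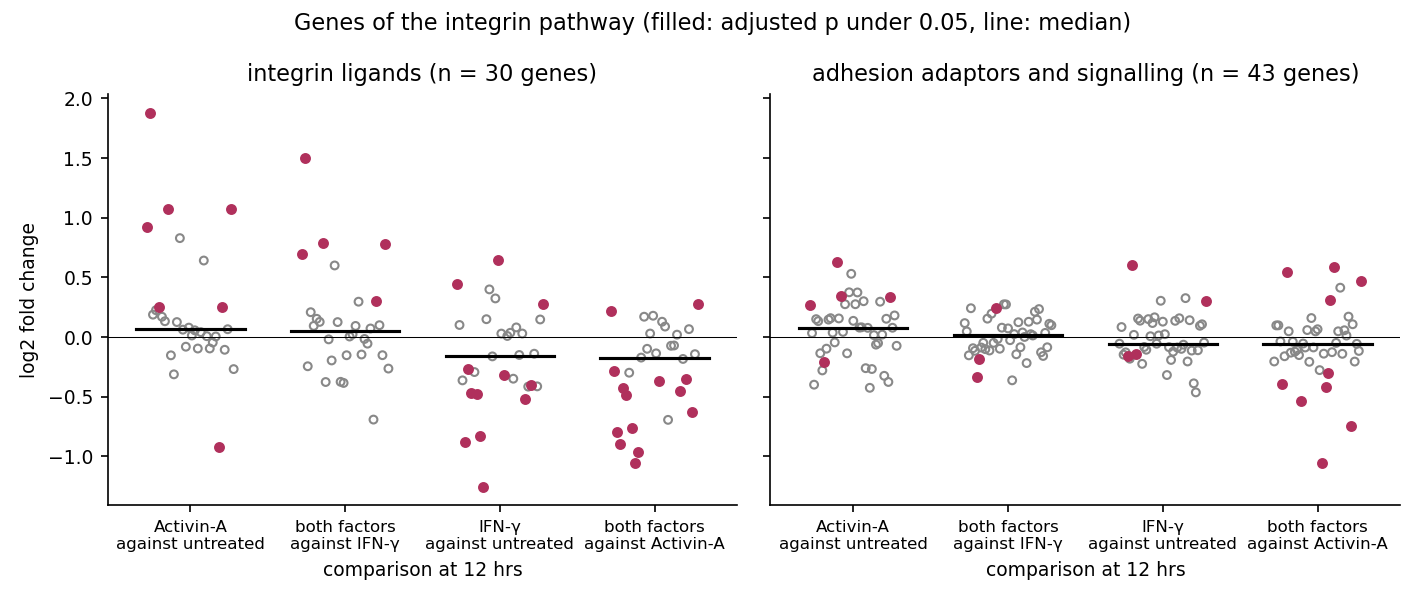
Log2 fold changes (y axis) of 30 integrin ligand genes and 43 adaptor and signalling genes in 4 comparisons at 12 hrs (x axis), with 1 point per gene, filled where the adjusted p was under 0.05, and a line at the median. Filled ligand points lie mostly above 0 where Activin-A was added and mostly below 0 where IFN-γ was added, with medians between -0.18 and 0.06.

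The genes whose group means followed those of an integrin most closely over the 8 groups are given as a description, since 8 means of the same wells bear no test and the genes share wells and depth. Among the 5 nearest to Itgb5 were Cd109 (Pearson r = 0.979), Dcun1d1, Col5a2 and Actn1 (0.959). Among the 5 nearest to Itgav were Pdgfb (0.980), Traf3, Papola and Pbrm1 (0.961), and among the 5 nearest to Itgb1 were Pprc1 (0.967), Prss23, Tnnt2 and Rnf4 (0.937). Among the integrins themselves r over the 8 means was 0.917 between Itgb5 and Itgav, 0.902 between Itgb1 and Itgav and 0.890 between Itgb1 and Itgb5. Between wells of the same group, as deviations from the group mean over 32 wells, the same pairs had r of -0.03, 0.22 and 0.37.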

How the data were processed

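3′ counts from total RNA of 32 wells were deposited by the authors as raw counts per gene, whole numbers without normalization. The submitters' processing notes name STAR 2.7.10b, featureCounts, DESeq2 1.36.0 and builds GRCm39 and mm39, whereas the annotation release and the handling of molecular identifiers are not given in the sources used here. Depth per well was 654539 to 1455074 counts, and floors cover counting error only. Of 12451 Ensembl identifiers 12437 were matched to symbols in GENCODE M21 (GRCm38), used for names alone.

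Wells were grouped by label. With R 4.3.3 and edgeR 4.0.16, genes were filtered by filterByExpr, TMM-normalized and tested by the quasi-likelihood test over the 16 wells of a time point, or all 32 wells between times, with Benjamini-Hochberg adjustment and a call at an adjusted p under 0.05. SEs were taken from the F statistics, and a prior count of 2 went into log2 CPM. The alternatives were RLE normalization, no filter, at least 10 counts in every sample, a replicate block, DESeq2 1.42.0 (Wald test, which the study's methods use), other sets of wells in the fit, an adjusted p under 0.01 and each well left out. On simulated data for Activin-A against untreated at 12 hrs, edgeR recovered 197 of 200 changed genes of 8830 with 13 false calls. DESeq2 recovered 193 of 200 of 8971 with 3 false calls. Recovery at the fold changes and counts of the integrins was not tested.

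Named were all members, any other integrin gene that passed the filter, up to 3 called genes per list and comparison with the lowest adjusted p, and the 5 genes nearest to Itgb1, Itgb5 and Itgav, of which 1 each is not reported here. Members and lists were chosen with earlier results of these data known. Promoter windows came from RefSeq (GRCm38.p6), and figures were drawn with Python 3.11.15 and matplotlib 3.10.9.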

Additional observations from a re-analysis of the deposited data

Results flagged for a closer look

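In 3 of 80 groups of 4 wells, formed by the 10 integrins and 8 conditions, a single well lay far from the other 3 by Dixon's criterion, which chance meets in about 1 in 20 groups. Itgb5 was at 41.0 CPM in replicate 1 of IFN-γ at 12 hrs, compared with 58.1 to 60.1 CPM in the other wells. Itga2 was at 4.36 CPM in replicate 1 of the untreated group at 4 hrs and at 0 in the others, from 5 counts. Itga4 was at 16.3 CPM in replicate 4 of the untreated group at 12 hrs, compared with 6.56 to 8.01 CPM.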

How the results depend on the processing

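No integrin's fold change reversed under any alternative in a comparison where it was called. The number of integrins called changed in 4 comparisons, and by over 1.5 times in IFN-γ against untreated at 12 hrs alone, from 1 (Itgav) to 0 with the replicate block, DESeq2, an adjusted p under 0.01 or all 32 wells in the fit, and 0 to 1 without 1 well. For Activin-A at 4 hrs it went from 4 to 3 with an adjusted p under 0.01, with the compared groups alone or without untreated replicate 1. It went to 5, of 9 tested, without Activin-A replicate 1. For both factors against IFN-γ at 4 hrs it went from 2 to 3 in 5 settings, through Itgb1, and against Activin-A at 12 hrs from 3 to 4 without Activin-A replicate 2 or replicate 1 of both. The cause was not tested. Replicate numbers were shared by all groups but did not pair the wells: deviations of same-numbered wells had a mean correlation of -0.00023 (-0.089 to 0.042), and 6 of 32 wells correlated best with their own number. Beside Itgav (adjusted p = 0.0524 with the replicate block), the block changed 1 further call, that of Itgb7 with both factors against Activin-A at 12 hrs (0.0558).

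Counts over all genes moved by over 1.5 times as follows. DESeq2 called 136 (edgeR 216) for Activin-A at 12 hrs, 84 (150) at 4 hrs, 61 (92) and 44 (74) for both factors against IFN-γ at 12 and 4 hrs, 549 (863) for both against Activin-A at 12 hrs, 284 (457) for untreated cells over time, 1 (2) for the Activin-A effect over time and 0 (1) for the interaction at 12 hrs. An adjusted p under 0.01 left 86, 51, 40, 558, 234, 1 and 0 in the same order from Activin-A at 4 hrs, and 32 (54) for the IFN-γ effect over time. Without a filter the interactions had 8 and 1 calls, with all 32 wells that at 4 hrs had 1, and a fit of the compared groups alone gave 120 (74) for both against IFN-γ at 4 hrs. Without 1 well the ranges were 47 to 72 for this comparison (47 without IFN-γ replicate 2 or replicate 4 of both, 49 without IFN-γ replicate 1), 302 to 374 for untreated cells (lowest without replicate 1 at 12 hrs), 35 to 54 for the IFN-γ effect (lowest without untreated replicate 4 at 4 hrs), 0 to 3 for the Activin-A effect over time, and 0 to 6 and 0 to 1 for the interactions at 12 and 4 hrs (1 at 4 hrs without replicate 1 of Activin-A). Depth limits Itgb3, Itga4 and Itga2, at 0 to 26 counts per well.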
